A study of Danio rerio with 15 samples.

Results

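Ferritin genes, together with the genes of the hormone hepcidin, the iron exporter ferroportin and a transferrin receptor, were followed in whole zebrafish larvae exposed to perfluorooctanesulfonic acid (PFOS), a persistent surfactant. The genes were those with the symbols fth1a, fth1b, fthl27, fthl28, fthl29, fthl30, fthl31, hamp, slc40a1 and tfr1b. These 10 symbols belong to 12 genes of 32520 in the table, because fthl27 and fthl31 each name 2 Ensembl genes. The symbols were put forward with results of these data known, so no p-value is printed for a single one of them. Counts and names of those passing a test, and of calls kept or lost, are descriptions only. RNA came from whole larvae of the AB wild type strain, 120 hours after fertilization. Controls and larvae exposed to PFOS at 0.1, 1, 5 or 10 µM each gave 3 libraries. By its title, the series concerns developmental neurotoxicity. No label gives the start of exposure, a vehicle, the number of larvae in a library or a batch. Whether libraries of 1 group came from separate clutches is also not stated, and p-values therefore measure only a spread between libraries that may be technical.

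Ferritin is a hollow protein shell that stores iron in a form that cannot react. Its heavy subunit carries the ferroxidase site that oxidizes ferrous iron on entry. In vertebrates ferritin synthesis is held back at translation when cell iron is low, so a transcript level is not a measure of ferritin protein. Hepcidin, encoded by hamp and made mainly in the liver, binds the exporter ferroportin, encoded by slc40a1, and leads to its breakdown. In zebrafish, tfr1a serves the erythroid lineage and tfr1b is expressed more widely. Both take up iron bound to transferrin.

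Total estimated counts were 11956657 to 12858343 at 10 µM and 13447347 to 15076888 in controls, and reached 19978125 at 0.1 µM. The 10 µM columns are numbered 2, 3 and 4 in the table, and these numbers are used here as names only. Of all genes, 21477 passed the filter on low counts and 5419 had 0 counts in every library. The deviations of the 10 µM libraries from their group mean did not follow those of any other library (correlations from -0.125 to 0.128). At 10 µM, dose and any batch cannot be told apart.

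Of the 12 genes, 7 lie with 1 further ferritin gene in a cluster on chromosome 3, between 32099507 and 32140446 as positioned in the authors' deposited table. The genome build of these positions is not stated in the labels or the table. All 8 are on the plus strand within 40.94 kb. Along the chromosome the order is fthl27 (32099507 to 32100999), fthl28 (32105175 to 32106672), fthl30 (32112004 to 32113648), fthl31 (32118670 to 32120354), fthl29 (32125452 to 32127583), a second gene named fthl31 (32129632 to 32130455), BX511021.1 (32135037 to 32136228) and a second gene named fthl27 (32139666 to 32140446). BX511021.1 is annotated as a ferritin middle subunit-like gene. It has no listed symbol and was added after its values were seen. RefSeq, in its assembly GRCz12tu, places the 5 fthl symbols in the same order between aldh16a1 and syt5a. Reads can be shared between near-identical copies in such a cluster, so the split of reads between its genes is uncertain. Their sum does not depend on this split if shared reads were kept and counted within the cluster. How shared reads were handled is not given. The other genes lie elsewhere: fth1a on chromosome 7 (12927944 to 12936708), fth1b on chromosome 25 (3058924 to 3066067), hamp on chromosome 16 (50289916 to 50292583), slc40a1 on chromosome 9 (41103127 to 41113878) and tfr1b on chromosome 24 (26017094 to 26031204).

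Ferritin transcripts of the cluster were more abundant at 10 µM, and those of fth1a and fth1b were not. The summed level of the 8 cluster genes was 617 ± 61.3 CPM (counts scaled to library size) at 10 µM and 282 ± 44.4 CPM in controls (SD, n = 3 each), a ratio of 2.19. In the 10 µM libraries numbered 2, 3 and 4 the sum was 654, 547 and 651 CPM, against 285, 325 and 236 CPM in control replicates 1, 2 and 3. The lowest 10 µM library lay above the highest control. The sum of fth1a and fth1b was 711 ± 36.6 CPM at 10 µM and 765 ± 10.4 CPM in controls, a ratio of 0.929. Without fthl29, the cluster sum was still 498 ± 49.6 CPM at 10 µM, against 267 ± 43.7 CPM in controls. With fthl27 (ENSDARG00000031776) left out as well, it was 103 ± 11.96 CPM at 10 µM, against 55.3 ± 7.75 CPM in controls. The ratio to control was 1.87 in both cases. In bulk larvae, a change in the number of cells of a type and a change of RNA per cell cannot be told apart.

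**Figure D1:**
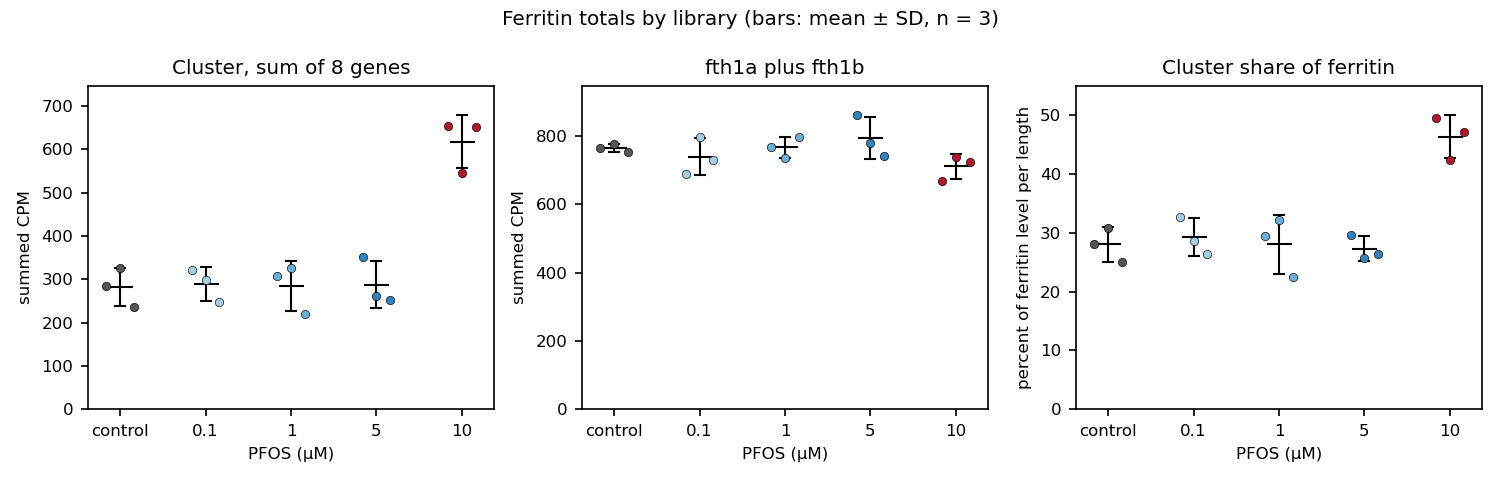
Summed level of the 8 cluster genes in CPM (left) and of fth1a plus fth1b in CPM (middle), by PFOS dose. On the right is the cluster's share, in percent, of the level per length summed over these genes without the second fthl27 and fthl31 genes. Points are libraries and bars give the mean ± SD of 3. The cluster sum is 547 to 654 CPM at 10 µM and 236 to 325 CPM in controls, while fth1a plus fth1b is 670 to 739 CPM at 10 µM and 755 to 776 CPM in controls.

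The gene with the largest fold change among the 11 tested was fthl29, a heavy chain-like ferritin gene. Its level was 127, 106 and 126 CPM in the 10 µM libraries numbered 2, 3 and 4, against 18.9, 13.8 and 12.4 CPM in control replicates 1, 2 and 3. The 10 µM libraries lay far above all other libraries of the series, of which the highest had 28.0 CPM. Group means were 119.5 ± 11.7 CPM at 10 µM and 15.04 ± 3.45 CPM in controls, a log2 fold change of 2.99 (SE 0.528) or 7.95-fold. To compare levels between genes, CPM were multiplied by the ratio of deposited TPM (a level scaled to gene length and library total) to CPM that each gene had over the 12 libraries below 10 µM, giving a length-scaled CPM. On this scale fthl29 was at 103 ± 10.1 at 10 µM and 13.0 ± 2.98 in controls. Its share of the length-scaled level of the cluster was 11.4% ± 0.0731 at 10 µM and 2.97% ± 0.697 in controls. The position of fthl29 relative to the other genes moved with this. At 10 µM its length-scaled CPM was within the spread of that of fthl31 (104 ± 10.3), and in controls within that of hamp (10.3 ± 4.63).

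The most abundant gene of the cluster was fthl27 (ENSDARG00000031776), also annotated as heavy chain-like. It had 413, 350 and 421 CPM in the 10 µM libraries numbered 2, 3 and 4, against 217, 247 and 171 CPM in control replicates 1, 2 and 3. The 10 µM libraries lay above all controls, as held for 18.6% of all genes. None of the other 12 libraries reached the lowest 10 µM library. Means were 395 ± 39.1 CPM at 10 µM and 212 ± 38.2 CPM in controls, a log2 fold change of 0.90 (SE 0.194) or 1.87-fold. Its share of the length-scaled level of the cluster was 65.8% ± 1.18 at 10 µM and 72.2% ± 2.54 in controls. The coding transcript fthl27-201 held 97.6% of the gene's counts at 10 µM and 97.4% in controls, and 2 transcripts with a retained intron held the rest.

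Further ferritin genes of the cluster had differences of similar size on the log2 scale. For fthl31 (ENSDARG00000094210) the libraries had 56.5, 46.5 and 53.9 CPM at 10 µM, against 26.3, 33.5 and 22.9 CPM in controls, a log2 fold change of 0.92 (SE 0.209). For fthl28 they had 40.3, 32.4 and 33.8 CPM at 10 µM, against 14.9, 21.5 and 23.1 CPM in controls, a log2 fold change of 0.84 (SE 0.262). For fthl30 they had 8.38, 7.90 and 8.01 CPM at 10 µM, against 5.17, 5.75 and 3.43 CPM in controls, a log2 fold change of 0.76 (SE 0.274). In each of these genes, as in fthl29 and fthl27 (ENSDARG00000031776), the 10 µM libraries were above every other library. The share of all genes with this pattern was not computed. Higher without overlap were 18.6% of all genes at 10 µM against control and 16.8% against 5 µM. Of fthl31, fthl28 and fthl30, the last had the narrowest spread within the 10 µM group, 8.10 ± 0.250 CPM. It rested on 104, 101 and 105 counts, so this spread is not read as a trait of the gene.

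The remaining cluster genes had few reads. The second fthl27 gene (ENSDARG00000116586) had 3.38, 1.96 and 3.89 CPM at 10 µM, against 1.60, 1.67 and 1.39 CPM in controls, a log2 fold change of 0.98 (SE 0.378). After removal of the length trend within libraries, its log2 fold change was 0.20. BX511021.1 had 6.12, 2.27 and 4.20 CPM at 10 µM, against 1.29, 1.34 and 1.39 CPM in controls, a log2 fold change of 1.64 (SE 0.437). It passed the threshold over all genes, but not in 5 of 11 alternatives, each leaving out 1 library. As BX511021.1 was added after its values were seen, nothing is read from this call. Both genes were lowest at 10 µM in the library numbered 3 and did not overlap with controls. The second fthl31 gene (ENSDARG00000113150) did not pass the filter, with 5 counts over the 3 libraries at 10 µM and 10 counts over the 3 controls, so no fold is given. The length scaling of both second copies rests on a very short effective length, and they are left out of the length-scaled sums.

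**Figure D2:**
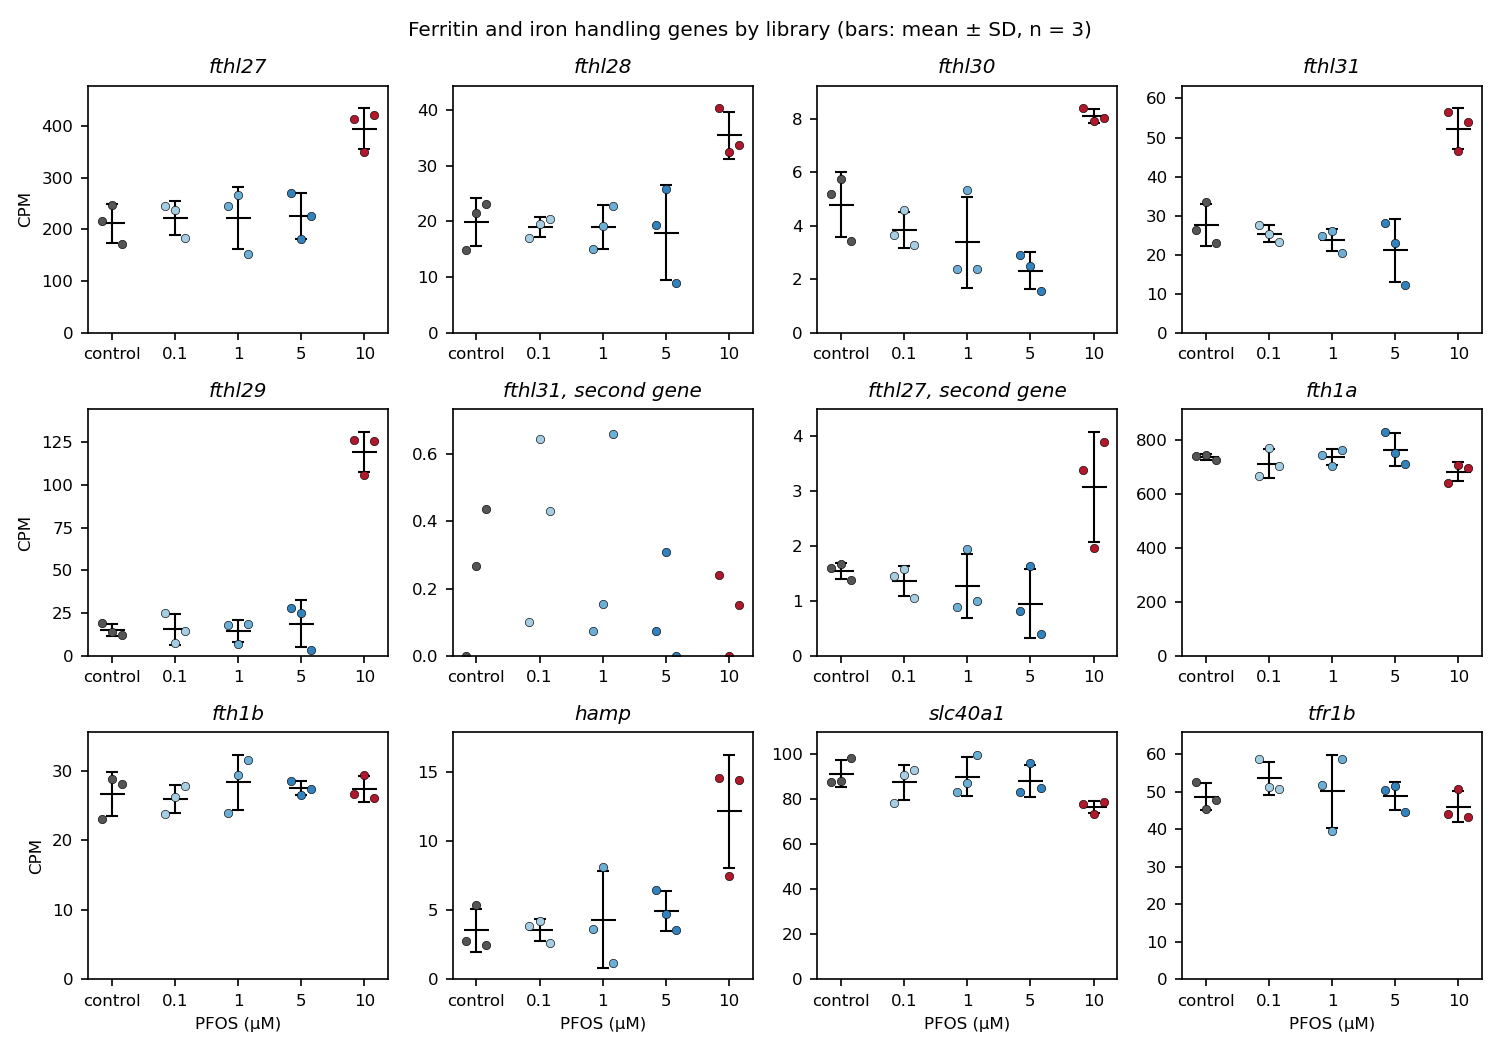
Level in CPM (vertical axis, from 0, each panel with its own scale) of the 12 genes by PFOS dose (horizontal axis). Points are libraries and bars give the mean ± SD of 3, omitted for the second fthl31 gene, whose counts were 0 to 9 per library. The 10 µM libraries stand above all others in the 6 tested fthl genes, and they overlap the other libraries in fth1a, fth1b, hamp, slc40a1 and tfr1b. The share of all genes that stand above all other libraries in this way was not computed.

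The tested genes next to the cluster did not pass. The 3 genes on the fthl27 side were kcnc3a, a potassium channel gene, baxb, a Bcl-2 family gene, and aldh16a1. On the other side lay syt5a, a synaptotagmin gene, tnnt1, a troponin T gene, and pih1d1. Their log2 fold changes at 10 µM over control ran from -0.27 to 0.38. None of the 6 passed edgeR's quasi-likelihood test with Benjamini-Hochberg adjustment, with adjusted p from 0.0923 for tnnt1 to 0.850 for aldh16a1. The number at an unadjusted p under 0.05 was 1, namely tnnt1, beside 6331 of all 21477 genes tested. Over all genes 14.4% were called, so the lack of a call among 6 genes does not set them apart.

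**Figure D3:**
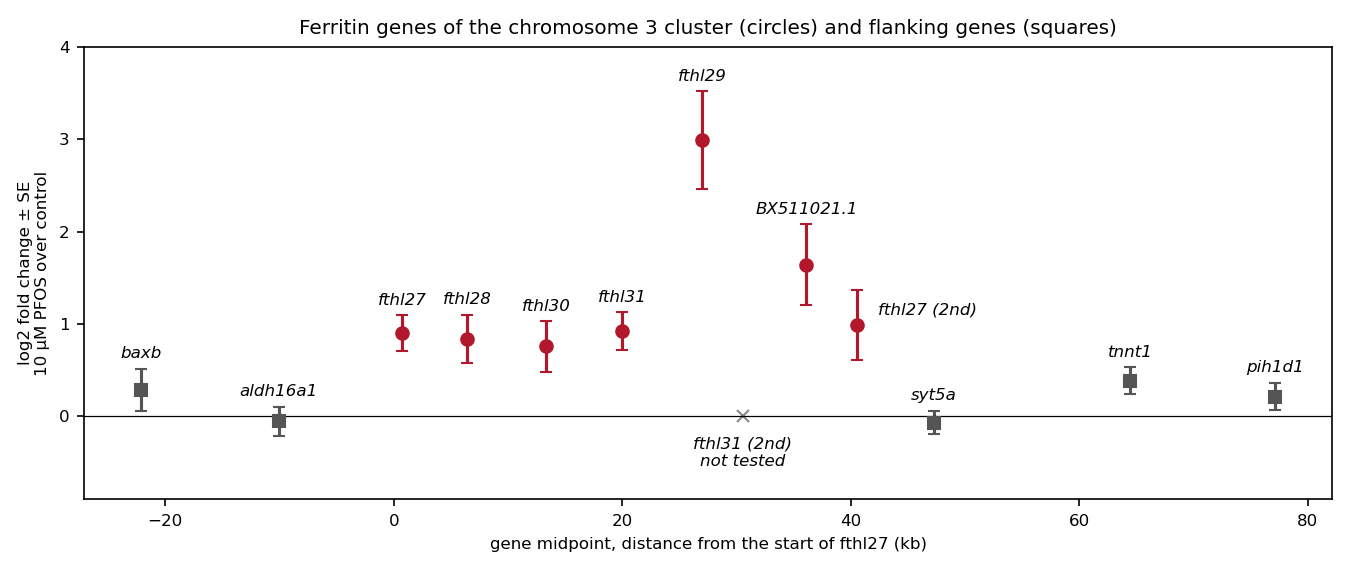
Log2 fold change ± SE at 10 µM over control (vertical axis) against the distance of each gene's midpoint from the start of fthl27 in kb (horizontal axis), for the ferritin cluster (circles) and tested flanking genes (squares). The 7 tested cluster genes lie between 0.76 and 2.99, and the flanking genes drawn lie between -0.07 and 0.38; the cross marks the second fthl31 gene, which was not tested and has no value.

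Outside the cluster, fth1a is the main heavy chain gene, and per length it was the most abundant of the ferritin genes followed here in every group. Its length-scaled CPM was 1022 ± 53.2 at 10 µM and 1104 ± 15.5 in controls. In CPM it had 643, 710 and 698 in the 10 µM libraries numbered 2, 3 and 4, against 742, 747 and 727 in control replicates 1, 2 and 3. The 10 µM libraries were all slightly below the controls, with a log2 fold change of -0.11 (SE 0.0841), and fth1a did not pass the threshold over all genes. Its paralogue fth1b had 26.7, 29.5 and 26.1 CPM at 10 µM, against 23.0, 28.9 and 28.1 CPM in controls, so the groups overlapped. The log2 fold change of fth1b was 0.04 (SE 0.113). The transcript fth1a-201 held 98.3% of the counts of fth1a at 10 µM and 99.3% in controls.

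Per length, the weight of the cluster among the ferritin genes followed here shifted. Cluster genes without the 2 second copies summed to a length-scaled CPM of 908 ± 92.3 at 10 µM and 442 ± 69.2 in controls, a ratio of 2.05. The sum of fth1a and fth1b was 1047 ± 54.1 at 10 µM and 1128 ± 15.4 in controls. These cluster genes, fth1a and fth1b together were at 1955 ± 65.0 at 10 µM and 1570.2 ± 84.5 in controls, a ratio of 1.24. Any ferritin genes under other symbols outside the cluster are not part of this total. The cluster's share of this total was 46.4% ± 3.64 at 10 µM and 28.03% ± 2.90 in controls. Exposure to 0.1, 1 and 5 µM gave mean shares of 29.2%, 28.1% and 27.3%. The lowest share at 10 µM, 42.4% in the library numbered 3, was above the highest elsewhere, 32.7% in 0.1 µM replicate 1.

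Among the genes of systemic iron control, hamp differed most. It had 14.6, 7.43 and 14.4 CPM in the 10 µM libraries numbered 2, 3 and 4, against 2.74, 5.34 and 2.48 CPM in control replicates 1, 2 and 3. All 10 µM libraries were above all controls, but the library numbered 3 lay near the highest control, and 1 µM replicate 2, at 8.13 CPM, lay above it. Means were 12.1 ± 4.08 CPM at 10 µM and 3.52 ± 1.58 CPM in controls, a log2 fold change of 1.77 (SE 0.455) or 3.41-fold. The transcript hamp-201 held 410 counts, 88.2% of the gene's, at 10 µM and 136 counts, 90.7%, in controls, and hamp-202 held the rest.

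The ferroportin gene slc40a1 was slightly lower at 10 µM. It had 77.7, 73.6 and 78.6 CPM in the 10 µM libraries, against 87.7, 87.9 and 98.4 CPM in controls, with no overlap between the groups. Its log2 fold change was -0.25 (SE 0.0949), and it did not pass the threshold over all genes. The receptor gene tfr1b had 44.0, 50.7 and 43.3 CPM in the 10 µM libraries, against 52.6, 45.4 and 47.8 CPM in controls. The groups overlapped, and the log2 fold change was -0.08 (SE 0.124).

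Counted over the list, 5 of the 11 tested genes were called higher and 0 lower at 10 µM over control (edgeR, adjusted p below 0.05). These were fthl27 (ENSDARG00000031776), fthl28, fthl29, fthl31 (ENSDARG00000094210) and hamp. Over all genes 14.4% were called, 7.78% higher and 6.65% lower. The median log2 fold change of the 11 was 0.84, beside -0.01 over all genes. The number with no overlap between the 3 libraries at 10 µM and the 3 controls was 7 higher and 2 lower, beside 18.6% and 18.3% of all genes. As the genes were chosen with this contrast in view, nothing is read from these counts. Fitted on the 10 µM and control libraries alone, 8 were called, with fthl30 and the second fthl27 gene added among the higher and slc40a1 lower. The calls of fthl29 and fthl27 (ENSDARG00000031776) were kept in all 12 alternative fits. That of fthl28 was lost on leaving out any 1 of the 6 libraries. That of hamp was lost when control replicate 1, control replicate 3 or 10 µM library 2 or 4 was left out, and that of fthl31 when control replicate 3 or 10 µM library 2 was left out.

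Below 10 µM the cluster sums of the groups lay within their spread. The full sum was 282 ± 44.4 CPM in controls, 289 ± 38.2 CPM at 0.1 µM, 285 ± 57.2 CPM at 1 µM and 288 ± 54.2 CPM at 5 µM (SD, n = 3 each). Without fthl29 and fthl27 (ENSDARG00000031776), it was 55.3 ± 7.75, 51.4 ± 2.24, 48.9 ± 4.51 and 43.2 ± 17.1 CPM in the same order. At 5 µM this smaller sum was 52.6, 53.5 and 23.4 CPM in replicates 1, 2 and 3, so its low mean rested on replicate 3. Of the 11 tested genes 0 were called at 0.1, 1 and 5 µM against control in edgeR, as over all genes (0%), and 0 in DESeq2. Groups without overlap with control numbered 0 higher and 0 lower at 0.1 µM (over all genes 2.63% and 2.85%), 0 higher and 0 lower at 1 µM (3.27% and 3.46%), and 0 higher and 1 lower at 5 µM (3.41% and 3.74%). At an unadjusted p under 0.05 there were 0 at 0.1 µM, 0 at 1 µM and 1 at 5 µM, fthl30. Over all genes the numbers at an unadjusted p under 0.05 were 243, 422 and 837 at these 3 doses in rising order, and DESeq2 called 0, 0 and 12.

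The low value of fthl30 at 5 µM ran against its level at 10 µM. It had 2.90, 2.48 and 1.55 CPM in 5 µM replicates 1, 2 and 3, against 5.17, 5.75 and 3.43 CPM in controls. The groups did not overlap, and the log2 fold change was -1.06 (SE 0.306). Replicate 3 at 5 µM was also the lowest of all libraries for fthl28 and fthl31 (ENSDARG00000094210). Over all genes, 3.74% had all 5 µM libraries below all controls. The means of fthl30 were 4.78 ± 1.21 CPM in controls, 3.84 ± 0.684 CPM at 0.1 µM, 3.37 ± 1.71 CPM at 1 µM, 2.31 ± 0.690 CPM at 5 µM and 8.10 ± 0.250 CPM at 10 µM. The step between the 2 highest doses was therefore larger for fthl30, with a log2 fold change of 1.81 (SE 0.298) at 10 µM over 5 µM, than its difference between 10 µM and control. This was not particular to fthl30. The log2 fold changes over 5 µM and over control were 1.31 and 0.92 for fthl31 (ENSDARG00000094210) and 0.99 and 0.84 for fthl28. They were 1.71 and 0.98 for the second fthl27 gene and 2.55 and 1.64 for BX511021.1, both with few reads. For fthl29 (2.68 and 2.99) and fthl27 (ENSDARG00000031776, 0.81 and 0.90) the step was the smaller.

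Against 5 µM, the 10 µM libraries were higher without overlap in the same 7 genes as against control, and lower without overlap in the same 2, fth1a and slc40a1. Over all genes 16.8% were higher and 15.3% lower without overlap. The log2 fold changes at 10 µM over 5 µM were 2.68 (SE 0.518) for fthl29, 1.31 (SE 0.213) for fthl31 (ENSDARG00000094210), 1.3 (SE 0.441) for hamp, 0.99 (SE 0.264) for fthl28 and 0.81 (SE 0.194) for fthl27 (ENSDARG00000031776). In edgeR 6 of 11 were called higher, beside 15.4% of all genes called and 8.06% called higher, and 0 were called lower, beside 7.34%. The call of hamp was missing here and those of fthl30 and the second fthl27 gene were added. The 6 calls became 3 on omitting 10 µM library 2. The comparisons of 10 µM with control and with 5 µM share the 10 µM libraries. An F test over all doses called 5 of 11, beside 7.9% of all genes, and this became 1 on omitting 10 µM library 2 and 2 on omitting 10 µM library 4.

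Spread among the 12 libraries below 10 µM differed strongly between the genes. The highest level over the lowest was 8.84 for fthl29 and 7.05 for hamp, but 1.77 for fthl27 (ENSDARG00000031776) and 1.25 for fth1a. For fthl29 the lowest of all libraries was 5 µM replicate 3, at 3.17 CPM, while 5 µM replicates 1 and 2 were at 28.0 and 25.2 CPM, both above every control. That library was also the lowest for fthl28 (8.84 CPM), fthl31 (12.3 CPM) and fthl30 (1.55 CPM). The second fthl27 gene (0.405 CPM) and BX511021.1 (0.337 CPM), both with few reads, were lowest there too. This did not hold for fthl27 (ENSDARG00000031776, 226 CPM) or fth1a (713 CPM). Across these 12 libraries the log2 CPM of fthl29 correlated with that of tfr1b (r = 0.65), fthl31 (r = 0.62) and fthl28 (r = 0.56). It did not follow that of fthl27 (ENSDARG00000031776, r = -0.14) or hamp (r = -0.11). The correlations with fthl31 and fthl28 include 5 µM replicate 3, where all these genes were lowest. They were not computed without that library, nor ranked among all genes, so they may rest on it. The level of fthl27 moved with that of hamp (r = 0.82) and opposite to that of slc40a1 (r = -0.85). Among 21476 genes ranked by their correlation with fthl27, hamp was number 64 from the top and slc40a1 number 23 from the bottom. The highest ranked were ndufa10 (r = 0.969), hsf2 (0.926), si:ch1073-325m22.2 (0.919), si:dkey-33i11.9 (0.912) and spice1 (0.902). None of these genes was called at 10 µM over control (edgeR, adjusted p from 0.201 for hsf2 to 0.913 for si:dkey-33i11.9). Libraries of control, 0.1 and 1 µM with the same number deviated together over all genes, and fthl27 was lowest in replicate 3 of each, at 171, 184 and 153 CPM. With the mean of each replicate number subtracted, the correlation of fthl27 was 0.78 with hamp, -0.87 with slc40a1 and -0.76 with fthl29. This subtraction included the 5 µM libraries, whose numbers are not taken to pair them with the other groups. These are descriptions over 12 libraries, and the pair was picked after the values were seen.

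The genes whose pattern was most like that of fthl29 over all 15 libraries, by Pearson correlation of log2 CPM, were si:dkey-159a18.1 (r = 0.974), the phosphatase gene ptp4a3b (0.973), slc12a10.2 (0.968), a cation-chloride cotransporter family gene, the ammonia transporter gene rhcgb (0.963) and the epithelial calcium channel gene trpv6 (0.957). Over the 12 libraries without 10 µM the same genes had r of 0.906, 0.936, 0.925, 0.882 and 0.911 in this order. Their log2 fold changes at 10 µM over control differed widely, at 2.32 for si:dkey-159a18.1, 0.46 for ptp4a3b, 1.14 for slc12a10.2, 1.22 for rhcgb and 2.18 for trpv6. The mean of trpv6 was 380 CPM at 10 µM and 83.7 CPM in controls. In 5 µM replicate 3, all 5 genes were below the control mean, by a log2 difference of -2.41 for trpv6, -1.30 for si:dkey-159a18.1, -1.11 for slc12a10.2, -0.70 for rhcgb and -0.39 for ptp4a3b, beside -2.17 for fthl29. As the 5 genes were picked by their correlation with fthl29 over these same libraries, this likeness is partly fixed by the choice.

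**Figure D4:**
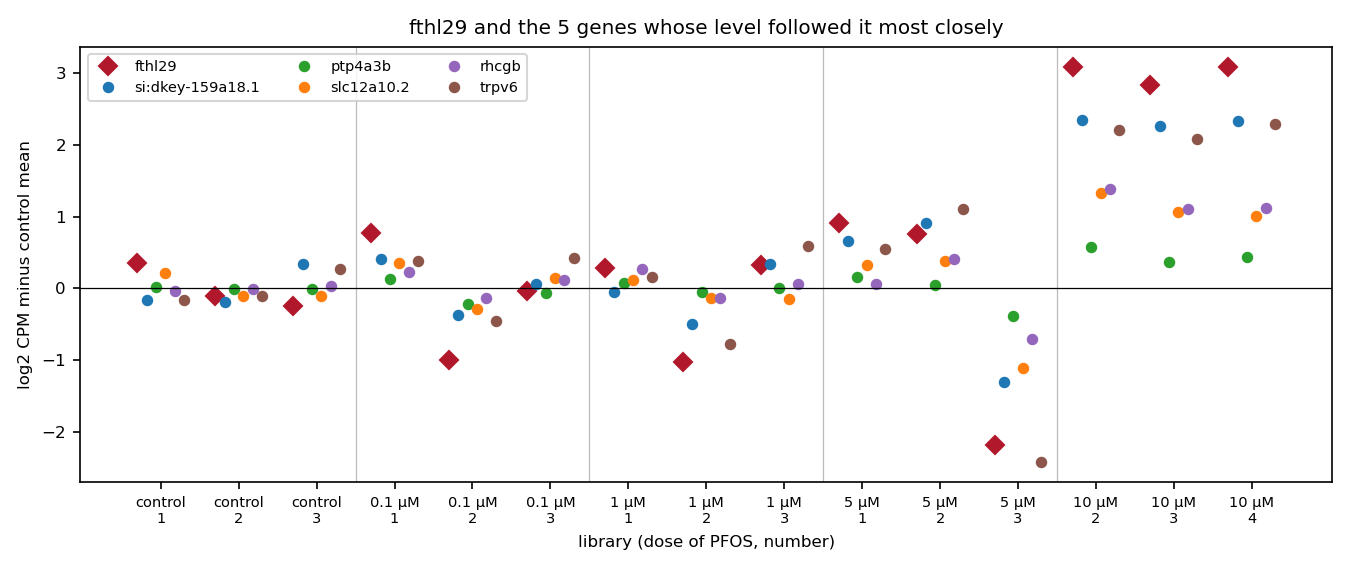
Log2 CPM minus the control mean (vertical axis) in each of the 15 libraries (horizontal axis, by PFOS dose and number) for fthl29 (diamonds) and the 5 genes with the highest correlation with it (circles). All 6 genes are above the control mean in the 3 libraries at 10 µM and below it in 5 µM replicate 3, where fthl29 is at -2.17. The 5 genes were picked by this correlation over the libraries drawn, so a like pattern is partly fixed by the choice.

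The wider iron pathway was described with 5 lists of other genes, chosen with earlier results of these data known. Of 121 symbols 111 were found, and 110 genes were tested. At 10 µM, 17 rose and 2 fell (edgeR, adjusted p below 0.05), 17.3% beside the 14.4% of all genes, and the median log2 fold change was 0.12. At 5 µM 0 of 110 passed in edgeR and 0 in DESeq2, with 4 at an unadjusted p under 0.05. The count of 19 at 10 µM became 24 in the fit on the 2 groups alone, 11 on omitting control replicate 1, 7 on omitting control replicate 3, 9 on omitting 10 µM library 2 and 8 on omitting 10 µM library 4.

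Of the iron uptake, transport and storage genes, 7.69% were called, beside 14.4% of all genes. Of 26 tested, 1 rose, steap4, which encodes a metalloreductase (27.3 ± 3.26 CPM at 10 µM and 19.0 ± 2.15 CPM in controls, log2 fold change 0.53, SE 0.111, adjusted p = 0.00688). Melanotransferrin, meltf, a membrane-bound relative of transferrin, was the only 1 that fell (21.4 ± 2.53 CPM at 10 µM and 39.1 ± 6.07 CPM in controls, log2 fold change -0.87, SE 0.192, adjusted p = 0.00871). The median of this list was 0.13. The plasma transferrin gene tfa was at 860 ± 94.5 CPM at 10 µM and 961 ± 93.2 CPM in controls (log2 fold change -0.16, adjusted p = 0.640). The erythroid receptor gene tfr1a was at -0.04 (adjusted p = 0.922), the ferrous iron transporter gene slc11a2 at 0.41 (adjusted p = 0.170), the transferrin receptor 2 gene tfr2 at 0.51 (adjusted p = 0.187) and the ceruloplasmin gene cp, a plasma ferroxidase, at 0.22 (adjusted p = 0.688).

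Among 25 tested genes of hepcidin regulation, 3 rose and 1 fell, 16% beside 14.4% of all genes, and the median was -0.08. The transcription factor gene cebpb rose to 169 ± 20.4 CPM at 10 µM, against 87.2 ± 37.5 CPM in controls (log2 fold change 0.96, SE 0.267, adjusted p = 0.0269). The gene smad9, a transducer of bone morphogenetic protein signals, rose by a log2 fold change of 0.47 (adjusted p = 0.0245). The proprotein convertase paralogues moved in opposite directions, with furina at 0.41 (adjusted p = 0.0440) and furinb at -0.50 (adjusted p = 0.0303). The calls of cebpb and furinb were lost on omitting control replicate 1, control replicate 3 or 10 µM library 2 or 4, that of smad9 in 5 of 12 alternatives and that of furina in 7.

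Of 21 genes for iron sensing and iron-sulphur clusters 3 rose and 0 fell, with a median of 0.18. At 14.3% called, this list was level with the 14.4% of all genes. They were lias, the lipoyl synthase gene, whose product is an iron-sulphur enzyme (21.6 ± 0.908 CPM at 10 µM and 14.3 ± 1.51 CPM in controls, log2 fold change 0.59, SE 0.112, adjusted p = 0.00414), and the assembly factor genes nubp2 (0.67, adjusted p = 0.0187) and bola3 (0.57, adjusted p = 0.0397). The calls of nubp2 and bola3 were lost in 3 and 7 of 12 alternatives. The iron regulatory protein genes aco1 (0.36, adjusted p = 0.0797) and ireb2 (0.08, adjusted p = 0.653) did not pass, although aco1 did in the fit on the 2 groups alone (adjusted p = 0.0180). Of 17 genes of haem synthesis and breakdown 2 rose and 0 fell, 11.8% called, with a median of 0.17. These were ppox, encoding the penultimate enzyme of haem synthesis (7.05 ± 0.0953 CPM at 10 µM and 4.24 ± 0.503 CPM in controls, 0.73, SE 0.156, adjusted p = 0.00726), and tmem14ca (0.62, adjusted p = 0.0180), whose call was lost in 5 of 12 alternatives, with 0.35 after removal of the length trend. The haem oxygenase gene hmox1a, at 26.0 ± 4.44 CPM at 10 µM and 13.2 ± 3.19 CPM in controls, did not pass (0.97, SE 0.326, adjusted p = 0.0577), although it did in the fit on the 2 groups alone. The erythroid haem synthesis gene alas2 was at 0.09 (adjusted p = 0.919).

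Metal response and ferroptosis defence had the most calls, with 8 of 21 higher and 0 lower, and a median of 0.20. The share called was 38.1%, beside 14.4% of all genes. As the list was chosen with earlier results of these data known, nothing is read from this share. The ferroptosis suppressor gene aifm2 rose to 39.8 ± 4.54 CPM at 10 µM, against 24.4 ± 1.23 CPM in controls (log2 fold change 0.70, SE 0.104, adjusted p = 0.00095). Also higher were nfe2l2a (0.40, adjusted p = 0.0129), which encodes the oxidative stress factor Nrf2, and keap1b (0.69, adjusted p = 0.00470), which encodes a Keap1 protein that holds Nrf2 back. The quinone reductase gene nqo1 was at 0.65 (adjusted p = 0.0123) and gclm, for a subunit of the enzyme that starts glutathione synthesis, at 0.50 (adjusted p = 0.0245). The zinc transporter gene slc39a1 was at 0.61 (adjusted p = 0.00961). The remaining called genes of this list were keap1a (0.48, edgeR adjusted p = 0.0266) and acsl4b (0.54, edgeR adjusted p = 0.0400). The list is named by its theme, and acsl4b is not itself a ferroptosis defence gene. The call of nqo1 was lost on omitting control replicate 3 or 10 µM library 2 or 4, that of nfe2l2a on omitting control replicate 3 and that of gclm in 4 of 12 alternatives. The metallothionein gene mt2, which responds to zinc and other metals, did not pass (-0.21, adjusted p = 0.686).

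**Figure D5:**
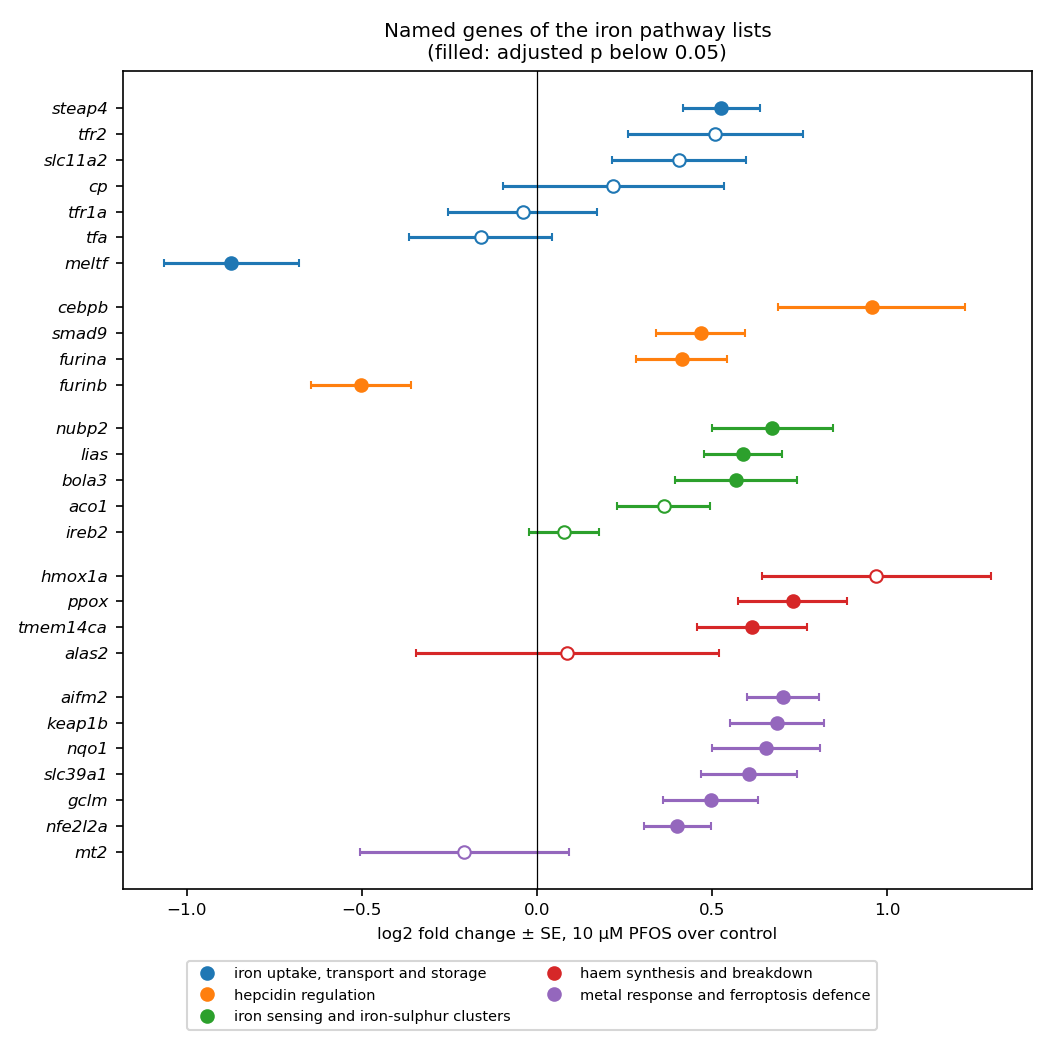
Log2 fold change ± SE at 10 µM over control (horizontal axis) for the named genes of the 5 iron pathway lists except keap1a and acsl4b (vertical axis, grouped and coloured by list). Filled points have an adjusted p below 0.05, and meltf (-0.87) and furinb (-0.50) are the filled points below 0.

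Markers of the cell types that make or store iron proteins were read in the same libraries, beside 7.78% of all genes called higher and 6.65% lower. Hepatocyte markers, 16 tested, had 5 higher and 0 lower at 10 µM, among them agxtb (1.1), fga (0.72) and fabp10a (0.65). Their median log2 fold change was 0.28, with the transferrin gene tfa, also on this list, at -0.16 and not called. Their summed level was 11469 to 11755 CPM at 10 µM and 9546 to 10792 CPM in controls, and none was at 0. The sum was 7576 to 11483 CPM at 5 µM, overlapping the 10 µM range. Macrophage markers, 12 tested of 15, had 3 higher and 0 lower: marco (1.41), ctss2.1 (1.20) and mfap4 (0.88). Their sum was 87.9 to 106 CPM at 10 µM and 69.4 to 86.2 CPM in controls, and none was at 0. At 0.1 µM the sum was 61.2 to 97.4 CPM, overlapping the 10 µM range, and the list median was 0.31. Erythroid markers, 17 tested of 21, had 0 higher and 1 lower, ank1a (-0.52). Their sum was 1677 to 2078 CPM at 10 µM and 1502 to 2194 CPM in controls, where 1 of the 2 genes named hbba1 was at 0. The list median was -0.06. Intestine markers, 12 tested, had 0 higher and 3 lower: chia.1 (-1.14), apoa4a (-0.75) and vil1 (-0.53). Their sum was 1847 to 1980 CPM at 10 µM and 2177 to 2493 CPM in controls, and none was at 0. The lowest sum at 0.1, 1 or 5 µM was 2119 CPM, and the list median was -0.33. The calls of chia.1 and apoa4a were lost on omitting control replicate 1, control replicate 2 or any 10 µM library, and that of vil1 on omitting control replicate 2 or 10 µM library 2 or 4. Those of fga and fabp10a were lost in 2 of 12 alternatives and that of mfap4 in 1, and fabp10a was at 0.30 after removal of the length trend. The part of these cell types in the levels of hamp, slc40a1 and the ferritin genes was not tested.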

How the data were processed

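RNA-seq of whole zebrafish larvae gave 15 libraries in 5 groups of 3. The authors deposited a table of estimated counts per gene, TPM per gene and the same per transcript. Gene counts equal the transcript sums up to rounding. For aligner, counter, strand setting, annotation release and genome build: not given in the sources used here. Not used were 18 per-sample columns of the gene table (RPKM, and TPM at 10 µM) and 30 of the transcript table (RPKM and TPM). The columns at 10 µM are numbered 2, 3 and 4, while the labels number the samples 1 to 3, and they were given a group but no sample. Deviations from the group means of same-numbered control, 0.1 and 1 µM libraries correlated at 0.19 to 0.452 in all 9 pairs, so these numbers are taken to pair the libraries. This pairing comes from the data and not from the labels.

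Estimated counts were fitted with edgeR 4.0.16 (quasi-likelihood test, 1 model of 5 group means, TMM scaling, filterByExpr, two-sided, Benjamini-Hochberg adjustment over 21477 genes, threshold 0.05). CPM are counts scaled to the filtered, TMM-adjusted library size, and correlations used log2 CPM with a prior count of 2. The SE of a log2 fold change was taken from the fold change and the F statistic. The common dispersion of 0.0168 gives a coefficient of variation of 13% within groups beyond counting noise, as 1 value for all genes. Single genes differed from this value, and fthl29 at 5 µM was at 18.8 ± 13.6 CPM. The fit was run on simulated counts with known changes as a check of the code. Those libraries were drawn independently, and fewer genes were changed than were called here. The check therefore does not measure the error rate of the calls given here. For levels between genes, CPM were multiplied by each gene's ratio of deposited TPM to CPM over the 12 libraries below 10 µM. The second fthl27 and second fthl31 genes were left out of these length-scaled sums.

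Members, lists and tests were chosen with earlier results of these data known. Named genes were all members, up to 6 passing genes of smallest p from each pathway list with 10 fixed genes, up to 3 from each marker list, and the 5 genes most correlated with fthl29. Also named were keap1a, acsl4b and the genes most correlated with fthl27 over the 12 libraries below 10 µM. Alternatives were DESeq2 size factors, no filter, DESeq2 1.42.0 as the tool, a filter of 5 CPM in 3 or more libraries, the 2 groups alone, each library left out, and, added after the data were seen, removal of the trend over gene length. Alternatives for single genes of the lists and for BX511021.1, and a replicate block over control, 0.1 and 1 µM, were also added after the data were seen.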

Additional observations from a re-analysis of the deposited data

How the results depend on the processing

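Of the 11 tested ferritin and iron handling genes, 5 were called at 10 µM over control, 8 with only the 2 groups in the fit, and 2 to 4 with single libraries left out. Of the 110 other iron pathway genes 19 were called, and 7 to 18 with single libraries left out. At 10 µM over 5 µM the 6 calls became 3 to 7 with single libraries left out. The 5 calls of the F test over all doses became 1 to 6 with single libraries left out and 7 in DESeq2. None of the 5, and no called gene named from the lists, turned its direction at 10 µM over control in any alternative run. This leaves aside keap1a and acsl4b, whose single values in the alternatives were not read. At 0.1, 1 and 5 µM 0 of the 11 were called in every alternative. The replicate block over control, 0.1, 1 and 5 µM also called 0 at each of these doses, with 0, 1 and 3 at an unadjusted p under 0.05. A block over control, 0.1 and 1 µM alone called 0 at 0.1 and 1 µM, with 0 and 2 at an unadjusted p under 0.05. The block changed no call. Same-numbered libraries of 5 µM and the other 3 groups correlated at -0.137 to 0.395, so there the numbers are not taken to pair the libraries, although 10 of all 12 libraries correlated best with their own number. At 10 µM, no paired analysis was possible because the columns carry numbers that cannot be matched to the labels. With the trend over gene length removed from every library, 4 of the 11 were called at 10 µM, the call of fthl28 being lost, and fth1a was called lower at 10 µM over 5 µM. Any sharing of reads between copies, which was not examined, would limit the split between cluster genes, and 3 libraries in each group limit all calls.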
